A study of Mus musculus with 44 samples.

Results

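The transcripts described here encode 9 proposed regulators of zygotic genome activation: the NF-Y subunits *Nfya*, *Nfyb* and *Nfyc*, the zinc finger factors *Yy1* and *Ctcf*, the ETS factor *Gabpa*, the retinoic acid receptor *Rarg* and the NELF subunits *Nelfa* and *Nelfb*. They were chosen by name, and are 9 of the 35269 genes quantified by single-embryo RNA-seq in 44 mouse two-cell embryos. Zygotic genome activation is the start of transcription from the embryonic genome, which in the mouse takes place mainly at the two-cell stage. Until then the embryo relies on transcripts and proteins stored in the oocyte, and a transcript measured at this stage can be maternal or newly made.

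The study asked whether embryos whose mothers lacked Dppa2 and Dppa4, a pair of dimerising chromatin proteins that induce two-cell transcripts in embryonic stem cells, activate their genome. Matings were natural, on a C57Bl/6 background, and the floxed genes were deleted in growing oocytes by Cre driven by the *Zp3* promoter. WT embryos (ctrl-x-WT, Dppa2/4+/+) came from Dppa2/4+/+ females and males. HET1 embryos (cKO-x-WT, Dppa2/4+/-) had Dppa2/4m- mothers, which lack the genes in the oocyte, and Dppa2/4+/+ fathers. HET2 (Dppa2/4+/-) and HOM (Dppa2/4-/-) embryos had Dppa2/4m- mothers and Dppa2/4+/- fathers (cKO-x-HET), shared their litters, and were told apart by the authors from their *Dppa2* and *Dppa4* transcripts. All HET1, HET2 and HOM embryos therefore lacked the maternal genes, and HOM embryos also lacked a paternal copy. There were 14 WT embryos (10 and 4 in litters named mating 1 and mating 2), 15 HET1 (7 and 8), 5 HET2 (4 and 1) and 10 HOM (3 and 7). The embryos of a litter are separate animals with a common mother, and since no litter held both WT and other embryos, litter and genotype cannot be told apart in comparisons with WT.

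NF-Y binds the CCAAT box through NF-YA, once NF-YB and NF-YC have paired through their histone folds. YY1 binds promoters and enhancers and recruits chromatin remodellers such as INO80, CTCF halts cohesin at the anchors of chromatin loops, and GABPA binds ETS motifs in promoters of housekeeping and mitochondrial genes together with a GABPB partner. RARG is a nuclear receptor that acts in response to retinoic acid. NELF holds RNA polymerase II shortly after it has begun transcription, until the kinase P-TEFb releases it.

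The upstream sequence of 4 of these genes is shown because their transcripts carried the differences found below (*Ctcf*, *Nelfa* and *Rarg*) or because the window holds 4 matches to the box read by its own complex (*Nfyc*). The sequences are from RefSeq (GRCm38.p6), run from 5′ to 3′ on the strand of the gene and end at the base before a RefSeq transcript start, except that of *Nelfa*, which stops 142 bases short of it because that stretch is exonic in the GENCODE annotation and was left out. Capitals mark matches, on either strand, to CCAAT (the NF-Y box), CCGGAAG (an ETS core), AAGATGG (a YY1 core) or AGGTCA (a half-site of retinoic acid receptors).
Ctcf, chr8:105636288-105636537, forward strand: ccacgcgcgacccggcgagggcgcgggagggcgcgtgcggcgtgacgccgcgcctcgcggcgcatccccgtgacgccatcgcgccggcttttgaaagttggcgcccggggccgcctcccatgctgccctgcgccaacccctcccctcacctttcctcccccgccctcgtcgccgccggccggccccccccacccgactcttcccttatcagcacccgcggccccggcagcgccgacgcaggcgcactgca
Nelfa, chr5:33936414-33936521, reverse strand: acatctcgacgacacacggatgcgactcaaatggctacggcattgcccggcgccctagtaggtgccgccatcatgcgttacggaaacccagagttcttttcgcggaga
Rarg, chr15:102257523-102257772, reverse strand: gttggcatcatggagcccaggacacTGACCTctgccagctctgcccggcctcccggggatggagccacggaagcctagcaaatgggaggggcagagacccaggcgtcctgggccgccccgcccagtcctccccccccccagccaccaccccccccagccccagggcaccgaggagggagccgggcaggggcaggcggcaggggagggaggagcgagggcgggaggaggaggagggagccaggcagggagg
Nfyc, chr4:120825210-120825459, reverse strand: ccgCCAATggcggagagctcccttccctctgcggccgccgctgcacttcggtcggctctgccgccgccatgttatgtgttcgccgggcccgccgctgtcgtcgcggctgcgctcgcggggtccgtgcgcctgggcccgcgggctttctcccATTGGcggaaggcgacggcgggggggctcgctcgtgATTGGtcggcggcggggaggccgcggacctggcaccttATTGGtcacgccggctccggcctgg

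All 9 genes had a window of 250 bases in the RefSeq table, and *Nfya* and *Nfyc* had 3 windows each and *Rarg* had 2, a window for each start. The *Nfyc* window printed holds 4 CCAAT boxes, at 247, 99, 63 and 25 bases before the start, another *Nfyc* window holds 2 more, and 1 of the *Nfya* windows holds 1. In the whole RefSeq table, 33.9% of 32851 such windows hold at least 1 CCAAT box, and the share that holds 4 was not counted. The *Rarg* window printed, the *Nelfb* window and 1 of the other *Nfyc* windows each hold 1 retinoic acid receptor half-site, found in 14% of windows. The *Gabpa* window, which is exonic in part and not printed, holds an ETS core 93 bases and a YY1 core 66 bases before the start, present in 6.91% and 4.49% of windows. No match lies in the 250 bases before the starts of *Ctcf*, *Nelfa*, *Yy1* or *Nfyb*. A match shows only that the letters are present.

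Levels are given as log2 RPM, in which the reads of a gene are scaled to the total reads of its embryo, so that a change in one transcript and an opposite change in the rest cannot be told apart. The embryos had between 247667 and 3163026 reads, with medians of 1770010 in WT, 528166 in HET1, 1108889 in HET2 and 803369 in HOM embryos. All 6 oocyte markers and all 6 two-cell markers examined were detected in every group. Their summed levels had medians of 1948 RPM in WT and 2945 RPM in HET1 embryos for the oocyte markers, and of 459 RPM and 800 RPM for the two-cell markers, with HET2 and HOM embryos between them. The part of these shifts in the HET1 differences was not tested. *Sp110* had the highest median log2 RPM of the two-cell markers, at 8.18 in WT, 8.92 in HET1 and 8.96 in HOM embryos. In HOM embryos *Zscan4d* (3.48 against 4.49 in WT), *Zfp352* (5.71 against 5.85), *Tcstv3* (4.13 against 4.17) and *Usp17lc* (4.39 against 4.45) were below WT in median. *Tdpoz4* was above WT there (5.27 against 4.88), and it alone was below WT in HET1 embryos (4.34). Of 8 cumulus cell markers, 3 or 4 had reads in each group, with median summed levels from 15.1 RPM in HET2 to 46.3 RPM in HOM embryos, mostly from *Amhr2* (reads in 43 of 44 embryos), while *Fshr* was at 0 in every embryo. Markers of blood and later embryonic lineages had median summed levels of at most 0.164 RPM. *Dppa2* and *Dppa4*, the deleted genes, did not exceed a log2 RPM of 2.05 in any HOM embryo, and in HET1 embryos *Dppa2* averaged 7.30 ± 0.87 (SD, n = 7) in mating 1 and 5.74 ± 0.36 (SD, n = 8) in mating 2. In the 4 HET2 embryos of mating 1 it averaged 5.80 ± 0.80 (SD), and in the single HET2 embryo of mating 2 (replicate 5) it was 8.88, above the means of both WT litters (8.57 and 8.19). WT replicate 11 was the least like its own group (median Pearson r of 0.576 with the other WT embryos), and WT replicate 10 had reads in 9403 genes against a WT median of 12247. Calls of named genes that were lost without these 2 embryos are given as such.

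All 9 transcripts were present at the two-cell stage. Reads were found in 44 of 44 embryos for each of them except *Rarg*, which had none in 2 HET1 embryos. Per kilobase of exon, the order of levels in WT embryos was *Ctcf* (log2 RPKM of 5.72 ± 0.25, SD, n = 14), *Gabpa* (5.56 ± 0.35), *Yy1* (4.90 ± 0.50), *Nfyc* (4.74 ± 1.22), *Nfyb* (4.05 ± 0.53), *Nelfa* (3.99 ± 1.01), *Nelfb* (2.52 ± 0.54), *Nfya* (1.75 ± 1.26) and *Rarg* (1.40 ± 1.57). Among the 8 pairs of neighbours in this order, 3 differed by an exact two-sided permutation test within embryos with Benjamini-Hochberg adjustment. The order came from these same embryos, and the test took the embryos of both litters as independent and the exonic lengths as fixed. *Gabpa* was above *Yy1* in 13 of 14 embryos (adjusted exact p = 0.032), *Nelfa* above *Nelfb* in 13 of 14 (adjusted exact p = 0.0020) and *Nelfb* above *Nfya* in 9 of 14 (adjusted exact p = 0.041). The other neighbours did not differ beyond their spread. Without WT replicates 10 and 11, the gap between *Nelfb* and *Nfya* narrowed from 0.77 to 0.42 and no longer passed (adjusted exact p = 0.12). *Nfyc* then lay above *Nfyb* by 1.15 in 11 of 12 embryos (adjusted exact p = 0.0026) and, in mean, above *Yy1* too, while *Nelfa* lay above *Nfyb*, and neither of the latter differences passed. The other 2 calls held in 12 of 12 embryos (adjusted exact p = 0.0020 for each). In HET1 and HET2 embryos *Nelfa* stood first in the order of group means, at a log2 RPKM of 5.60 and 5.39, and in HOM embryos *Gabpa* did, at 5.41.

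**Figure D1:**
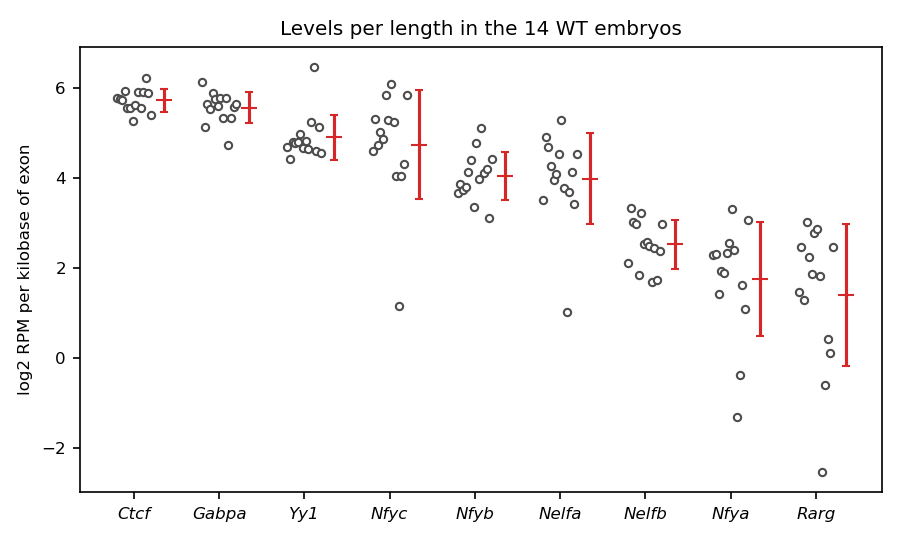
Level of each of the 9 transcripts per kilobase of exon (vertical axis, log2 RPM per kilobase) in each of the 14 WT embryos (open circles), with the mean and SD in red. *Ctcf* and *Gabpa* form a narrow band at the top, while *Nfya* and *Rarg* lie lowest and spread over several log2 units.

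Differences between groups were tested with limma on 13338 genes, after a common floor had been set at 1.86 log2 RPM, the highest value that a gene without reads took in any of the embryos. All 9 transcripts were among the genes tested. In HET1 against WT embryos, 2 of the 9 passed the threshold (adjusted p below 0.05), *Nelfa* higher and *Ctcf* lower, where 6.51% of all genes tested were called. In HET2 against WT, 0 of 9 were called (background 0.0375%), and in HOM against WT, 0 of 9 (background 0.0450%). At an unadjusted p below 0.05, limma gave 5, 4 and 3 of the 9 and 2927, 1202 and 2202 of all genes in these comparisons. HOM against HET2 embryos within their shared litters, the comparison in which only the zygotic genotype differed, gave 0 of 9 (background 0.0150%), with 0 of 9 also at an unadjusted p below 0.05. The mating 2 part of that comparison rests on HET2 replicate 5, without which 0 of 9 were called as well. The median difference of the 9 was 0.08, -0.44, 0.23 and 0.22 in these 4 comparisons, against 0.10, -0.01, 0.17 and 0.18 for all genes tested. The first 3 comparisons share the WT embryos.

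**Figure D2:**
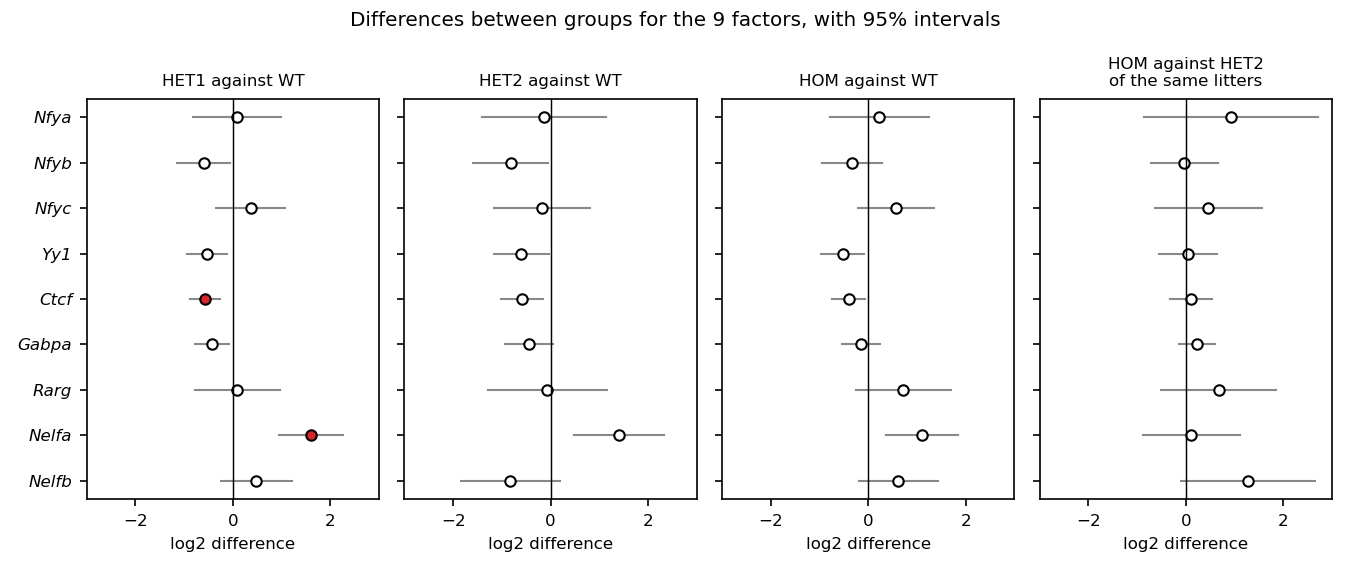
Difference in level of each transcript (horizontal axis, log2) in 4 comparisons, with the 95% interval as a grey line; filled red circles mark an adjusted p below 0.05. *Nelfa* (1.61) and *Ctcf* (-0.57) in HET1 against WT are the filled circles, and every interval of HOM against HET2 includes 0.

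*Nelfa* encodes the NELF subunit that binds RNA polymerase II, and lies on chromosome 5 from 33897916 to 33936413 (reverse strand, GRCm38). Its log2 RPM ran from 3.01 through a median of 6.08 to 7.28 in WT embryos, from 5.67 through 7.49 to 9.26 in HET1 embryos, and from 6.12 through 6.97 to 8.12 in HOM embryos. The 5 HET2 embryos had values of 6.74, 6.29, 8.93, 8.58 and 6.28. The groups overlapped, but 14 of 15 HET1, 5 of 5 HET2 and 10 of 10 HOM embryos lay above the WT median, and 10, 2 and 3 of them above the highest WT embryo. The difference from WT was 1.61 ± 0.33 (SE; limma, adjusted p = 0.0021) in HET1, 1.40 ± 0.46 (adjusted p = 0.35) in HET2 and 1.10 ± 0.37 (adjusted p = 0.13) in HOM embryos, of which only the first passed. Within the shared litters, HOM differed from HET2 by 0.11 (95% interval -0.89 to 1.11).

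The call for *Nelfa* in HET1 embryos depended on the litters. With litter as a random effect the difference was 1.60 with an adjusted p of 0.32 (limma), and 0 of 13338 genes were called. Mating 2 of the cKO-x-WT cross averaged 8.02 ± 0.91 (SD, n = 8) and mating 1 averaged 7.07 ± 0.75 (SD, n = 7). Without mating 2 the difference from WT was 1.10 (adjusted p = 0.13), and without mating 1 of the control cross it was 1.65 (adjusted p = 0.067). WT replicate 10 had the lowest value (3.01), and without WT replicates 10 and 11 the difference was 1.34 (adjusted p = 0.0070). Across the 44 embryos the level of *Nelfa* correlated with the log2 of the total reads at r = -0.55, and HET1 embryos were the shallowest. With every embryo thinned to 247667 reads the difference was 1.57 (adjusted p = 0.0020). *Nelfa* shares 60 exonic bases with *Nsd2* on the opposite strand, and the counting ignored strand. *Nsd2* differed by 0.55 ± 0.31 (SE; limma, adjusted p = 0.29) in HET1 embryos, and its part in the *Nelfa* value was not tested.

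*Nelfb*, whose product links NELF-E to the rest of the NELF complex, is on chromosome 2 (25199712 to 25211489, reverse strand) and was below *Nelfa* per length. WT embryos ran from 3.46 through a median of 4.29 to 5.11, HET1 embryos from 2.03 through 4.93 to 6.08 and HOM embryos from 3.11 through 5.09 to 6.39. HET2 embryos had 3.23, 1.44, 3.98, 4.99 and 3.30. The ranges overlapped throughout, with HET2 embryos low: 4 of 5 were below the WT median. The differences from WT were 0.48 ± 0.36 (SE) in HET1, -0.83 ± 0.51 in HET2 and 0.62 ± 0.40 in HOM, and none passed (limma, adjusted p of 0.46, 0.65 and 0.44). HOM exceeded HET2 in mean by 1.28 within litters, the widest gap among the 9 transcripts, with a 95% interval from -0.09 to 2.65 (limma, adjusted p = 0.85). The lowest HET2 value rested on 3 reads.

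The other NELF subunits moved between litters. *Nelfe*, the RNA-binding subunit, averaged 6.33 ± 0.62 (SD, n = 7) in cKO-x-WT mating 1 and 3.11 ± 1.16 (SD, n = 8) in mating 2. It fell by 3.22 ± 0.53 (SE; limma, adjusted p = 1.2e-05). *Nelfcd* fell by 2.39 ± 0.54 (adjusted p = 0.0011) between the same litters, from 5.75 to 3.36. *Nelfb* differed by -0.95 ± 0.48 (adjusted p = 0.16), while *Nelfa* differed in the other direction, by 0.95 ± 0.43 (adjusted p = 0.11). Neither *Nelfa* nor *Nelfb* passed. The values of the 4 subunits thus lay on both sides of 0 between these litters.

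Of 18 other genes of promoter-proximal pausing and elongation, all were tested, and 0 were called in HET1, HET2 or HOM against WT or in HOM against HET2. The shares of all genes called in these comparisons were 6.51%, 0.0375%, 0.0450% and 0.0150%. Between the cKO-x-WT litters 7 of 18 were lower in mating 2, with 22.0% of all genes called there, and 15.5% called lower (864 higher and 2073 lower, or 1532 and 1463 once each embryo was centred on its median). Besides *Nelfe* and *Nelfcd* they included *Supt5* (-1.23), the DSIF subunit that works with NELF, *Polr2a* (-1.45), the largest subunit of RNA polymerase II, and the elongation factors *Aff1* (-0.97) and *Aff4* (-1.53). With centred embryos 4 of the 18 were called, and *Supt5* (-0.98) and *Polr2a* (-1.21) were no longer among them. Of 6 alternatives the *Polr2a* call was lost under 5 and the *Supt5* call under 4.

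**Figure D3:**
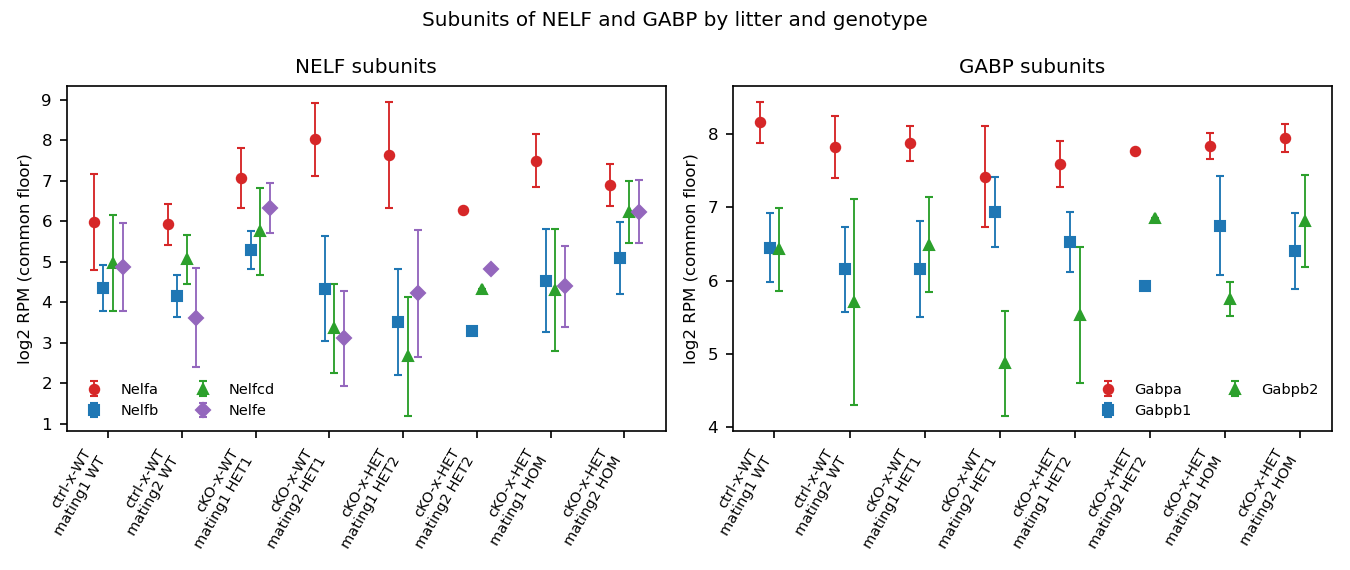
Mean and SD (bars; none for the single HET2 embryo of mating 2) of NELF subunits (left) and GABP subunits (right), in log2 RPM with the common floor, for each litter and genotype. In cKO-x-WT mating 2 *Nelfa* is at its highest (8.02), while *Nelfe* (3.11) and *Gabpb2* (4.87) are at their lowest.

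*Ctcf* (chromosome 8, 105636568 to 105682922, forward strand) varied little within each group. WT embryos ran from 7.54 through a median of 8.03 to 8.49, HET1 embryos from 6.74 through 7.47 to 7.98 and HOM embryos from 7.08 through 7.61 to 7.92. HET2 embryos had 7.50, 7.52, 7.63, 6.92 and 7.51. All 15 HET1, 5 HET2 and 10 HOM embryos were below the WT median, and 10, 4 and 4 of them were below the lowest WT embryo. The difference from WT was -0.57 ± 0.15 (SE; limma, adjusted p = 0.017) in HET1, -0.59 ± 0.22 (adjusted p = 0.41) in HET2 and -0.40 ± 0.17 (adjusted p = 0.22) in HOM embryos. HOM and HET2 embryos of the same litters differed by 0.10 (95% interval -0.33 to 0.53).

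The HET1 call was lost with litter as a random effect (-0.58, limma, adjusted p = 0.47), without cKO-x-WT mating 2 (-0.44, adjusted p = 0.17), without ctrl-x-WT mating 1 (-0.70, adjusted p = 0.18) and with reads thinned to one depth (-0.54, adjusted p = 0.077). *Ctcf* overlaps exons of *Agrp* (114 bases) and *Gm5914* (370 bases) on the opposite strand. Both stood at or near the level of a gene without reads, with mean log2 RPM of 0.51 and -0.10. The litters of a cross differed little for *Ctcf*: mating 2 differed from mating 1 by 0.19 ± 0.23 (SE) in the control cross, -0.23 ± 0.20 in cKO-x-WT and 0.16 ± 0.23 in cKO-x-HET, and none passed. Of 18 cohesin genes and CTCF partners, 17 were tested. *Stag2*, a cohesin subunit, was lower in HET1 than in WT embryos (-1.12 ± 0.28, SE; limma, adjusted p = 0.010), and the other 16 were not called. The list thus gave 1 call of 17 where 6.51% of all genes were called, and 0 between the cKO-x-WT litters, where 22.0% of all genes were. It gave 0 in HET2 or HOM against WT, where 0.0375% and 0.0450% of all genes were called. *Mau2*, part of the cohesin loader, was lower in mating 2 of the control cross (-1.78 ± 0.50, SE; limma, adjusted p = 0.046), but not without WT replicates 10 and 11 (-1.16, adjusted p = 0.56).

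**Figure D4:**
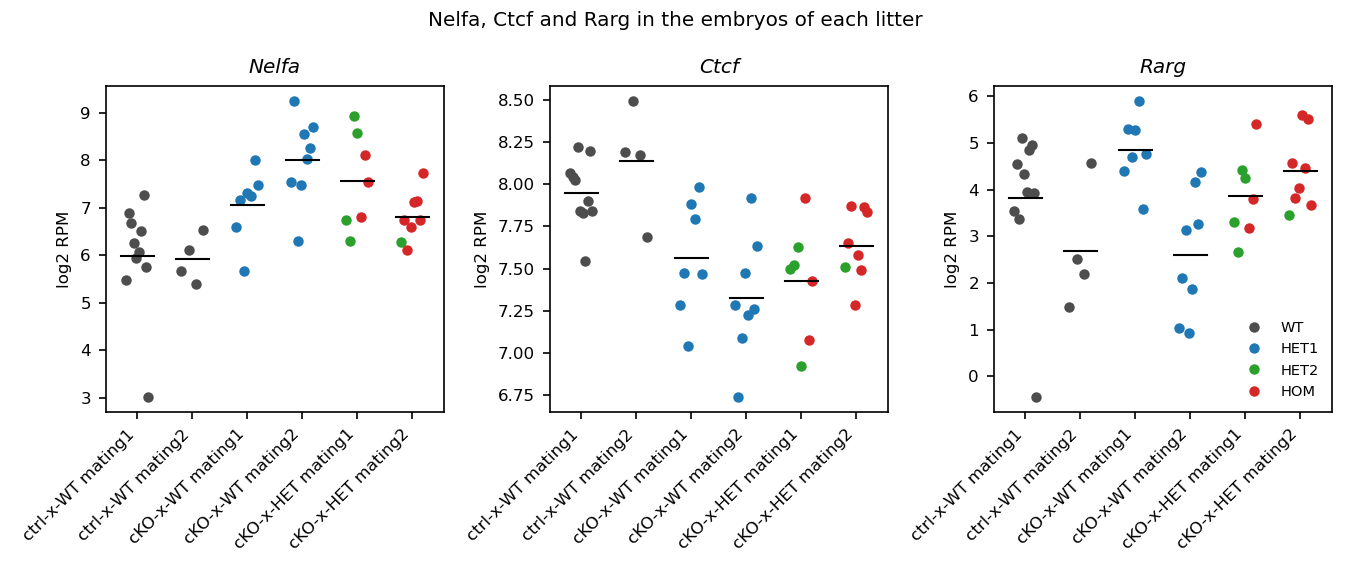
Level of *Nelfa*, *Ctcf* and *Rarg* (log2 RPM) in every embryo, by litter; colours give the group and black lines the litter means. The litter mean of *Nelfa* is highest in cKO-x-WT mating 2 (8.02), those of *Ctcf* in both control litters, and that of *Rarg* drops from 4.85 in cKO-x-WT mating 1 to 2.61 in mating 2.

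*Yy1* (chromosome 12, 108792973 to 108820148, forward strand) had a narrow range in most embryos. WT embryos ran from 7.11 through a median of 7.47 to 9.14, HET1 embryos from 6.09 through 7.0 to 8.20 and HOM embryos from 6.41 through 7.02 to 7.93. HET2 embryos had 7.58, 7.19, 6.65, 6.63 and 6.89. Below the WT median lay 13 of 15 HET1, 4 of 5 HET2 and 9 of 10 HOM embryos, and all ranges overlapped. The differences from WT were -0.53 ± 0.20 (SE), -0.60 ± 0.28 and -0.52 ± 0.22, and none passed (limma, adjusted p of 0.095, 0.53 and 0.22). HOM and HET2 differed by 0.04 (95% interval -0.54 to 0.63). Of 20 YY1 relatives and INO80 genes, 1 was called in HET1 against WT embryos, against 6.51% of all genes: *Ino80e* was higher (1.12 ± 0.35, SE; limma, adjusted p = 0.042). Between the cKO-x-WT litters 5 of the 20 were lower in mating 2, where 15.5% of all genes were: the remodeller ATPases *Ruvbl1* (-1.35) and *Ruvbl2* (-1.67), and the INO80 subunits *Actr5* (-2.10), *Ino80c* (-1.34) and *Uchl5* (-1.53). With centred embryos *Ino80c* (-1.09; limma, adjusted p = 0.076) and *Uchl5* (-1.28, adjusted p = 0.079) were no longer called, and *Ruvbl2* was not called without the floor (adjusted p = 0.090), thinned (adjusted p = 0.067) or by voom (adjusted p = 0.098). Between the cKO-x-HET litters *Ruvbl2* was higher in mating 2 (2.23, limma, adjusted p = 0.033) and *Sfmbt1* lower (-1.01, adjusted p = 0.020), where 6.44% of all genes were called. With thinned reads neither passed (adjusted p of 0.060 and 0.055), and by voom *Ruvbl2* did not (adjusted p = 0.064).

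*Gabpa* lies on chromosome 16 (84834925 to 84863779, forward strand). Its level ran from 7.23 through a median of 8.13 to 8.65 in WT, from 6.10 through 7.85 to 8.16 in HET1 and from 7.69 through 7.91 to 8.26 in HOM embryos. HET2 embryos had 8.01, 7.27, 7.44, 7.66 and 7.77. The ranges overlapped, and below the WT median lay 13 of 15 HET1, 5 of 5 HET2 and 9 of 10 HOM embryos. The differences from WT were -0.44 ± 0.18 (SE), -0.44 ± 0.25 and -0.16 ± 0.20, and none passed (limma, adjusted p of 0.12, 0.60 and 0.72). By limma voom on the recovered reads the HET1 difference was -0.61 and passed (adjusted p = 0.025), and without cKO-x-WT mating 1 it was -0.65 (adjusted p = 0.024). HOM and HET2 differed by 0.22 (95% interval -0.15 to 0.59). *Gabpa* shares 397 exonic bases with *Atp5j* (a subunit of mitochondrial ATP synthase) on the opposite strand, and reads there cannot be told apart without strand. *Atp5j* was lower in HET1 than in WT embryos by -1.62 ± 0.31 (SE; limma, adjusted p = 0.0013), and its part in the *Gabpa* value was not tested. The *Atp5j* call was lost without cKO-x-WT mating 2 (-0.92, adjusted p = 0.12), without ctrl-x-WT mating 1 (-1.78, adjusted p = 0.057) and with litter as a random effect (-1.62, limma, adjusted p = 0.27).

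Of the partners of *Gabpa*, *Gabpb2* was lower in mating 2 of the cKO-x-WT cross (-1.62 ± 0.38, SE; limma, adjusted p = 0.0015), a call kept under all 6 alternatives run. *Gabpb1* was higher (0.79 ± 0.30, adjusted p = 0.049), but its call was lost without the common floor (adjusted p = 0.096), by voom (adjusted p = 0.14) and without embryos under 400000 reads (adjusted p = 0.15). *Gabpa* itself differed by -0.46 ± 0.23 (adjusted p = 0.15). Of 25 GABP partners and ETS family genes, 17 were tested. Only *Elf3* (1.65 ± 0.50, SE; limma, adjusted p = 0.033) was called in HET1 against WT, where 6.51% of all genes were. Between the cKO-x-WT litters 5 of the 17 were called, against 22.0% of all genes: besides the GABPB genes, *Elf1* (-1.41), *Etv5* (-2.10) and *Spic* (-1.83) were lower in mating 2. Between the cKO-x-HET litters *Spic* was called in the other direction (1.90, limma, adjusted p = 0.0020).

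The NF-Y subunits differed in how much they varied. *Nfyb* (chromosome 10, 82748701 to 82764144, reverse strand) ran from 5.46 through a median of 6.39 to 7.44 in WT, from 4.10 through 5.80 to 7.10 in HET1 and from 4.69 through 6.25 to 6.95 in HOM embryos. HET2 embryos had 6.19, 4.90, 5.56, 5.67 and 5.53. The ranges overlapped, with 12 of 15 HET1 and 5 of 5 HET2 embryos below the WT median. The differences from WT were -0.60 ± 0.27 (SE), -0.82 ± 0.38 and -0.33 ± 0.30, and none passed (limma, adjusted p of 0.18, 0.53 and 0.60). HOM and HET2 differed by -0.03 (95% interval -0.71 to 0.66). In HOM embryos the litters were apart: the 3 embryos of mating 1 averaged 5.05 ± 0.33 (SD) and the 7 of mating 2 averaged 6.49 ± 0.33, and the test between the cKO-x-HET litters gave 1.03 ± 0.41 (SE; limma, adjusted p = 0.11), where 6.44% of all genes and 0 of the 9 were called.

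*Nfyc* (chromosome 4, 120757438 to 120831572, reverse strand) ran from 2.72 through a median of 6.51 to 7.65 in WT, from 4.69 through 6.89 to 8.02 in HET1 and from 5.39 through 7.16 to 8.29 in HOM embryos. The HET2 embryos had 5.24, 5.37, 6.77, 6.86 and 6.35. All ranges overlapped. The lowest WT value, that of WT replicate 11, rested on 7 reads, and the next WT embryo stood at 5.59. The differences from WT were 0.36 ± 0.35 (SE), -0.18 ± 0.49 and 0.57 ± 0.39, and none passed (limma, adjusted p of 0.58, 0.95 and 0.46). HOM and HET2 differed by 0.46 (95% interval -0.63 to 1.55).

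*Nfya*, the subunit that contacts DNA (chromosome 17, 48386885 to 48409906, reverse strand), was the NF-Y subunit with the lowest level per length. Its level ran from 1.55 through a median of 4.97 to 6.19 in WT, from 0.92 through 5.03 to 6.15 in HET1 and from 1.87 through 5.26 to 6.70 in HOM embryos. HET2 embryos had 4.81, 4.02, 5.69, 5.64 and 2.38. The lowest embryos of WT, HET1, HET2 and HOM had 4, 1, 9 and 3 reads, and all ranges overlapped. The differences from WT were 0.09 ± 0.45 (SE), -0.13 ± 0.63 and 0.23 ± 0.50 (limma, adjusted p of 0.94, 0.98 and 0.85). HOM and HET2 differed by 0.93 (95% interval -0.86 to 2.71). Among 5 histone-fold relatives of NF-Y, *Pole3*, a subunit of DNA polymerase epsilon, was higher in HET1 than in WT embryos (1.24 ± 0.39, SE; limma, adjusted p = 0.040), and higher in mating 2 of the cKO-x-WT cross (1.30 ± 0.46, adjusted p = 0.036), while *Chrac1* was lower there (-1.74 ± 0.54, adjusted p = 0.017). These are 1 of 5 and 2 of 5 genes, where 6.51% and 22.0% of all genes were called. Of 6 alternatives the *Pole3* litter call was lost under 4 (limma, adjusted p of 0.056 to 0.13) and the *Chrac1* call under 3 (adjusted p of 0.053 to 0.10).

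*Rarg* (chromosome 15, 102234938 to 102257517, reverse strand) had the lowest level per length of the 9 in WT embryos, and the largest difference between litters among them. Levels ran from -0.45 through a median of 3.93 to 5.10 in WT, from 0.93 through 4.16 to 5.90 in HET1 and from 3.17 through 4.24 to 5.61 in HOM embryos. HET2 embryos had 3.30, 2.66, 4.42, 4.25 and 3.46. The HET1 value of 0.93 is the one given to a gene without reads in that embryo. All groups overlapped, and the differences from WT of 0.08 ± 0.44 (SE), -0.07 ± 0.61 and 0.72 ± 0.49 did not pass (limma, adjusted p of 0.94, 1.00 and 0.46). HOM and HET2 differed by 0.67 (95% interval -0.50 to 1.84).

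Between the cKO-x-WT litters *Rarg* was lower in mating 2, and was the only one of the 9 transcripts to pass there (background 22.0%). Mating 1 averaged 4.85 ± 0.74 (SD, n = 7), with a lowest value of 3.59. Mating 2 averaged 2.61 ± 1.33 (SD, n = 8) and held both embryos without a *Rarg* read. These averages are of deposited values, in which the 2 embryos without reads stood at 0.93 and 1.86. On values with the common floor, the difference was -2.02 ± 0.52 (SE; limma, adjusted p = 0.0037), and the ranges overlapped. It was -1.48 (adjusted p = 0.035) with reads thinned to one depth and -2.01 (adjusted p = 0.011) without embryos under 400000 reads. In the control cross, mating 2 was also below mating 1 in mean, by -1.27 ± 0.59, which did not pass (limma, adjusted p = 0.30). *Nfyc* differed there by -1.27 ± 0.51 and did not pass (limma, adjusted p = 0.20). There 1.79% of all genes and 0 of the 9 were called. Without WT replicates 10 and 11 the *Rarg* difference was -1.20 (limma, adjusted p = 0.71) and that of *Nfyc* shrank to -0.49 (adjusted p = 0.92). Of 23 retinoid pathway genes, 13 were tested, and 1 was called in each of HET1 against WT (6.51% of all genes) and the cKO-x-WT litters. *Crabp2*, which carries retinoic acid to its receptors, was higher in HET1 than in WT embryos (1.16 ± 0.34, SE; limma, adjusted p = 0.028). *Crabp2* had reads in only 5 of 14 WT and 9 of 15 HET1 embryos. Its WT mean with the common floor (1.91) lay close to that floor. *Crabp2* was also higher in mating 2 than in mating 1 of cKO-x-WT (1.96 ± 0.39, limma, adjusted p = 2.6e-04). Mating 2 was the litter in which *Rarg* was low.

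**Figure D5:**
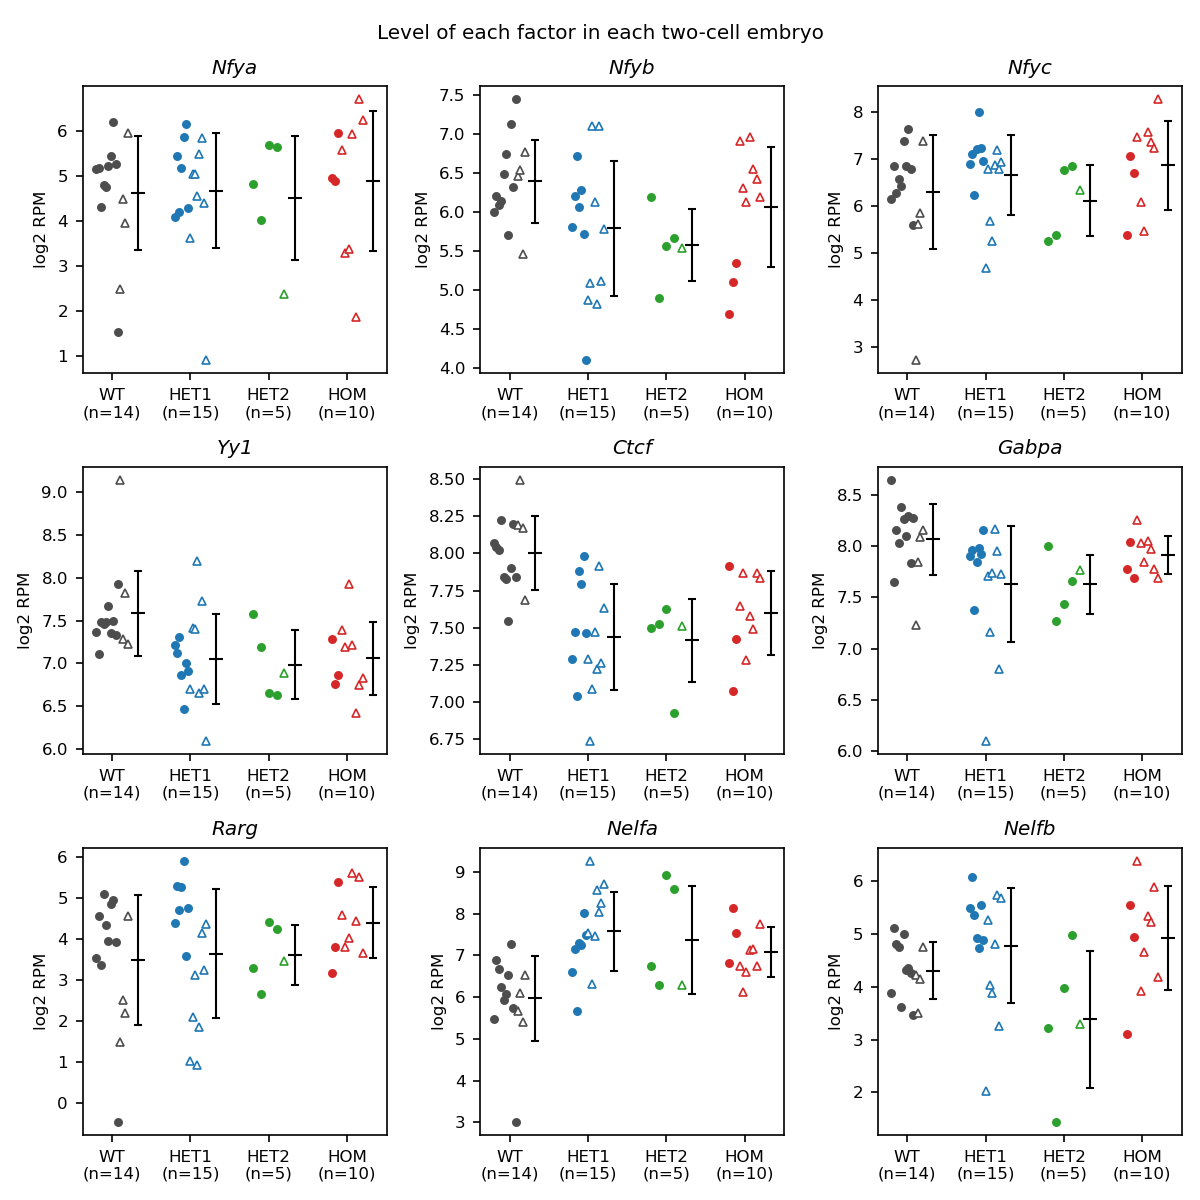
Level of each of the 9 transcripts (log2 RPM as deposited) in every embryo, by group, with filled circles for mating 1, open triangles for mating 2, and black bars for the mean and SD. All groups overlap for every transcript, and 14 of 15 HET1 embryos lie above the WT median for *Nelfa* and 15 of 15 below it for *Ctcf*.

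Among 16 other proposed activators of the embryonic genome, 15 were tested. *Hsf1* (1.08 ± 0.33, SE; limma, adjusted p = 0.034), the heat shock factor, and *Pou5f1* (1.74 ± 0.42, adjusted p = 0.0080), which encodes Oct4, were higher in HET1 than in WT embryos, where 6.51% of all genes were called. None was called in HET2 or HOM against WT, where 0.0375% and 0.0450% of all genes were. There *Pou5f1* differed by 1.81 ± 0.59 (adjusted p = 0.35) and 1.79 ± 0.47 (adjusted p = 0.081), and *Hsf1* by 0.46 (adjusted p = 0.82) and 0.85 (adjusted p = 0.23), by limma. The uncalled differences of the other genes called in HET1 embryos were, in HET2 and HOM embryos, 1.21 and 0.29 for *Pole3*, -0.19 and -0.75 for *Stag2*, 1.36 and 1.16 for *Elf3*, 0.47 and 0.31 for *Crabp2*, and 0.07 and 1.42 for *Ino80e*. Between the cKO-x-WT litters 5 of the 15 were lower in mating 2, against 15.5% of all genes: *Esrrb* (-2.31), *Nr5a2* (-1.24), *Tead4* (-2.13), *Tfap2c* (-1.63) and *Usf1* (-2.53). The *Tfap2c* call was lost by limma voom. Of the 7 genes of the pathway lists called in HET1 against WT (*Pole3*, *Stag2*, *Elf3*, *Crabp2*, *Ino80e*, *Hsf1* and *Pou5f1*), 0 passed when litter was a random effect, and 0 passed without cKO-x-WT mating 2 or without ctrl-x-WT mating 1, and *Crabp2* stood at 0.11 and *Pole3* at 0.55 without cKO-x-WT mating 2, and *Pole3* at 0.12 without ctrl-x-WT mating 1. Without WT replicates 10 and 11, 4 of the 7 were no longer called (limma): *Elf3* (1.56, adjusted p = 0.069), *Crabp2* (1.15, adjusted p = 0.0503), *Ino80e* (0.96, adjusted p = 0.101) and *Hsf1* (0.82, adjusted p = 0.095). With reads thinned to one depth, *Ino80e* (0.78, adjusted p = 0.25), *Pole3* (0.90, adjusted p = 0.14) and *Hsf1* (0.90, adjusted p = 0.074) were not called. Of the 13 alternatives run, *Stag2* and *Pou5f1* lost their calls under 3 (litter as a random effect and either of these litters left out), and each of the other 5 genes lost its call under 8 to 10. Between the cKO-x-WT litters, where 22.0% of all genes tested were called, 25 genes of the lists were called. Of these, 15 were called under every one of 6 alternatives, among them *Nelfe*, *Nelfcd*, *Gabpb2*, *Crabp2*, *Actr5*, *Ruvbl1* and *Esrrb*. Of the HET1 embryos in these litters, only 9 of 15 had *Crabp2* reads.

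Over the 44 embryos the 9 transcripts did not vary as a block. After the mean of each litter and genotype had been removed, the highest Pearson correlations among them were *Nfyc* with *Nelfa* (r = 0.61), *Nfyc* with *Rarg* (0.58) and *Nfya* with *Nfyc* (0.58), and the lowest was *Nfyc* with *Yy1* (-0.63). WT replicate 11 held both the lowest *Nfyc* value (2.72, from 7 reads) and the highest *Yy1* value (9.14) of the 44 embryos. The correlation without this embryo was not computed. *Nfyb* was near 0 with its partners *Nfya* (0.11) and *Nfyc* (0.07), and *Nelfa* with *Nelfb* was at 0.47. These points share libraries and depth: the number of genes above the floor correlated with *Nfyc* at r = 0.61 and with *Yy1* at r = -0.60. Among 5555 genes, the transcript whose level was most like that of a member over the 44 embryos was *Med29* for *Nfyc* (r = 0.91), *Dtx2* for *Nelfa* (0.89), *Tmppe* for *Rarg* (0.84), *Eme1* for *Nelfb* (0.82), *Rrn3* for *Gabpa* (0.74), *Msantd2* for *Nfyb* (0.73), *Sirt1* for *Yy1* (0.69), *Ubald1* for *Nfya* (0.68) and *Larp7* for *Ctcf* (0.63).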

How the data were processed

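RNA-seq was performed on 44 single two-cell embryos, with mRNA captured by oligo-dT beads and amplified by Smart-seq2. The authors trimmed the reads (Trim Galore 0.6.5, cutadapt 2.3), mapped them to GRCm38 with HISAT2 2.1.0, filtered them at a MAPQ of 20 and deposited log2 RPM per gene from SeqMonk, counted without regard to strand. The gene annotation release is not given in the sources used here. In the deposited log2 values, 0.9 read stands in for 0 reads, and the number of reads could be recovered (99.9992% of values above the lowest within 0.05 read of a whole number).

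From these, values under 1.86 log2 RPM, the highest zero-read value, were raised to it, and genes above it in at least 5 embryos (13338) entered the test (limma 3.58.1, R 4.3.3: lmFit, eBayes with trend, Benjamini-Hochberg adjustment, threshold 0.05), with the 4 groups in 1 model. HOM and HET2 were compared with mating as a term, and litters within each cross with group as a term. The paper names no test for differential expression. The members, pathway lists, marker lists and common floor were chosen with earlier results of these data known, and all members are described. The genes named beyond them are those of the lists that passed, except 1 that is not reported here, and the gene most like each member. About 3 reads are needed before a level differs from 0. That limit is for counting error alone, as amplified reads carried no molecular identifiers. Alternatives covered the floor, the filter, centring, thinning to one depth, limma voom on recovered reads, litter as a random effect, mating number as a block and leaving out litters or embryos. The 2 that left out WT replicates 10 and 11, or embryos under 400000 reads, were chosen after seeing the data. Scripts were tested on simulated data. Motifs were matched exactly in RefSeq upstream windows of 250 bases. Figures were drawn with matplotlib 3.10.9.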

Additional observations from a re-analysis of the deposited data

Results flagged for a closer look

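In 7 of 72 sets of embryos examined (each member in each group or litter of 4 to 10 embryos), 1 embryo lay further from its nearest neighbour than Dixon's 95% limit allows. That limit is set for about 5% of independent sets of normally distributed values. These sets share embryos, and several flagged values rest on few reads, so 7 of 72 cannot be held against that share. In WT replicate 10 of ctrl-x-WT mating 1, *Nfya* stood at 1.55 log2 RPM (4 reads), *Rarg* at -0.45 (1 read) and *Nelfa* at 3.01 (11 reads), each below the other 9 embryos of the litter. *Nfya* in HET1 replicate 15 was low at 0.92 (1 read), *Nfyb* in HET1 replicate 7 at 4.10 (7 reads), *Gabpa* in HET1 replicate 3 at 7.37 (235 reads) and *Ctcf* in HET2 replicate 4 at 6.92 (134 reads). All 7 were at the low end of their set.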

How the results depend on the processing

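The 2 calls in HET1 against WT rested on embryos treated as independent. With litter as a random effect 0 members and 0 of 13338 genes were called. Leaving out 1 litter in turn gave 0 to 3 members and 5 to 2563 genes. Thinned reads gave 1 member and 736 genes. With mating number as a replicate block 2 were called (745 genes), but the mating numbers do not pair litters (r of -0.72 to 0.40 between the mating differences of the crosses). The block changed no call of a member. Between the cKO-x-WT litters 2 members were called with centred embryos (*Nelfa* 1.20), where 2995 genes were. There, 2 were called without embryos under 400000 reads (*Gabpa* -0.68), where 2500 genes were. For HET2 and HOM against WT and HOM against HET2, every alternative gave 0 members.

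Of the single-gene values under alternatives, 655 kept direction and side of the threshold, 99 lost a call, 5 gained one and 49 changed sign. The sign changes concerned uncalled differences. In HET1 against WT, leaving out litters gave *Nfya* -0.17 to 0.51, *Nfyc* -0.022 to 1.26, *Rarg* -0.86 to 1.16 and *Nsd2* -0.34 to 0.91. *Rarg* was -0.0015 by voom and -0.22 without WT replicates 10 and 11, and *Nfya* -0.32 and, without shallow embryos, -0.10. In HET2 against WT, leaving out litters or embryos gave *Nfya* -2.26 to 0.40, *Nfyc* -0.54 to 0.72 and *Rarg* -0.43 to 0.84. *Rarg* was 0.13 without the floor, 0.024 centred, 0.38 thinned, 0.023 by voom and 0.11 with litter as a random effect, *Nfya* 0.25 thinned and *Nfyc* 0.048 with the random effect. In HOM against WT, leaving out litters gave *Nfyb* -1.34 to 0.10 and *Gabpa* -0.25 to 0.083, and *Nfya* was -0.18 without WT replicates 10 and 11. In HOM against HET2, centring gave *Yy1* -0.16, *Ctcf* -0.10 and *Nelfa* -0.094, *Nfyb* was 0.15 thinned and 0.066 by voom, and without the litter block *Nfyb* was 0.49 and *Nelfa* -0.29. Leaving out HET2 embryos gave *Nfyb* -0.53 to 0.15, *Yy1* -0.043 to 0.17 and *Nelfa* -0.15 to 0.41. Without WT replicates 10 and 11, *Yy1* minus *Nfyc* per length in WT embryos was -0.36 and *Nfyb* minus *Nelfa* -0.30. The cause was not tested.

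The count over all genes in HET1 against WT was 868, but 4054 without the common floor, 0 with litter as a random effect, 466 without shallow embryos, and 5 to 2563 without a litter (5 without cKO-x-WT mating 2, 136 without ctrl-x-WT mating 1, 2563 without cKO-x-WT mating 1). It was 0 to 57 against 5 in HET2 against WT, 2 to 132 against 6 in HOM against WT and 1 to 4 against 2 in HOM against HET2, where the 2 genes are *Dppa2* and *Dppa4*, by which the groups had been told apart. Between the control litters it was 239, but 482 without the floor, 402 without the filter, 677 by voom and 37 without WT replicates 10 and 11. Depth limits *Rarg*, *Nelfb* and *Nfya* most, with medians of 11, 18 and 19 reads in HET1 embryos.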
